A study of Mus musculus with 9 samples.

Results

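The genes described here are Flt3 and the receptors for the myeloid growth factors: Flt3, Kit, Csf1r, Csf2ra, Csf2rb, Csf2rb2, Il3ra and Csf3r. They were chosen by name, and 13 probe sets that carry 1 of these symbols alone measured them. The 8 receptor genes were among 18193 genes measured by single-symbol probe sets, and all 8 reached the filter on low values that left 10916 genes for testing. 1 further probe set that carried a receptor's symbol beside another symbol was not used. Levels are log2 of the array intensity after an offset and quantile normalization, a difference of 1 on this scale being a doubling of the normalized intensity. Deposited intensities on different arrays need not stand in the same ratio. The level of the filter was 5.31.

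RNA was hybridised to 9 Affymetrix arrays. The groups were interferon-producing killer dendritic cells (IKDC) of lymph node (1 array) and spleen (2 arrays), natural killer (NK) cells of lymph node (1 array) and spleen (2 arrays), and conventional dendritic cells (CDC) of lymph node (1 array) and spleen (2 arrays). All groups were sorted fresh, with no treatment named, from naive BALB/c mice between 6 and 8 weeks of age. The labels name no altered gene, and the markers used for sorting and the number of animals behind an array are not given in the sources used here.

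Flt3 and Kit are related tyrosine kinase receptors of blood progenitors. Flt3 and its ligand drive the development of dendritic cells and remain important for their numbers in lymphoid organs, while Kit, the receptor of stem cell factor, marks stem cells, progenitors and mast cells. Csf1r, a tyrosine kinase receptor of the same family, serves CSF-1 and IL-34 in monocytes and macrophages. The remaining genes encode cytokine receptors without a kinase of their own. Csf2ra and Il3ra encode the ligand-binding alpha chains for GM-CSF and IL-3, Csf2rb encodes the beta chain they share with the IL-5 receptor, and Csf2rb2 encodes a second beta chain that mice use for IL-3 alone. Csf3r, the G-CSF receptor, is best known from neutrophils.

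The libraries were checked against markers of the labelled cells. The summed intensity of 9 NK markers lay between 20040.5 and 26376 on the IKDC arrays and between 28009.9 and 46984 on the NK arrays, against 693 to 1608 on the CDC arrays. 8 dendritic cell markers other than Flt3 summed to 4151 to 6798 in IKDC and 421 to 5089 in NK, against 14151 to 22010 in CDC, and the lowest and the highest NK value were those of spleen arrays 2 and 1. Itgax alone made up 2831 of that highest NK sum. The spleen arrays numbered 1 also stood apart in sex-linked genes: Xist was at 6.02 to 6.36 on them and at 11.43 to 12.49 elsewhere, while the Y-linked Eif2s3y was at 8.84 to 9.40 on them and at most 4.28 elsewhere. The 2 spleen arrays of each cell type thus also differed in sex-linked transcripts.

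Of the 4 receptors that passed the test between NK and CDC, Flt3, Csf2ra, Kit and Csf2rb, the promoters of the first 3 are shown. Each stretch runs from 250 bases before to 50 after the start of the gene, 5′ to 3′ on the gene's strand, from RefSeq on build GRCm38.p6. Capitals mark matches to GAGGAA, the core letters bound by PU.1, the factor encoded by Spi1. Flt3 lies at chr5:147400440-147400739 on the minus strand, Csf2ra at chr19:61228369-61228668 on the minus strand and Kit at chr5:75574737-75575036 on the plus strand.
Flt3: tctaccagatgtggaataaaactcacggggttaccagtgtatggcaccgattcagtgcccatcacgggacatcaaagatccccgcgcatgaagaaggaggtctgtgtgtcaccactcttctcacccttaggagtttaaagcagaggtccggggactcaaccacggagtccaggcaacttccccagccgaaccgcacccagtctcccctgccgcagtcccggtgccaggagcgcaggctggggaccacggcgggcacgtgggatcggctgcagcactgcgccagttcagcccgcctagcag
Csf2ra: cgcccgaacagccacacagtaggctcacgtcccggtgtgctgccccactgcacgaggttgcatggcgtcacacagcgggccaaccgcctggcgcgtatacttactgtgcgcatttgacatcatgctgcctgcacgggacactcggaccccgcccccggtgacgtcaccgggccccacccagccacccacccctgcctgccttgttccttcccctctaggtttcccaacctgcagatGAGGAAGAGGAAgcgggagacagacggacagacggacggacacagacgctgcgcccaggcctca
Kit: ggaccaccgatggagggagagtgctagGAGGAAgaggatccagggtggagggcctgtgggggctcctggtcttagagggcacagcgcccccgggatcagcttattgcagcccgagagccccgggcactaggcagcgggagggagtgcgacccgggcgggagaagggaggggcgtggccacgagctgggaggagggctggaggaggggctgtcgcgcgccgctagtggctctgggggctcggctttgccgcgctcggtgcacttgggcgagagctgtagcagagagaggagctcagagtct
Motifs were searched on both strands. GAGGAA stood in 28.3% of 32851 mouse promoters of this length. Csf2ra held 2 adjoining copies starting 14 and 8 bases before the gene start, written at positions -14 and -8, and Kit held 1 at -223. Csf2rb2 held 2 on the opposite strand, at -167 and 30, and Csf3r held 1 at -86. The Flt3 window held none of the letters searched. TGTGGT, bound by RUNX factors and present in 16.8% of promoters, and the PU.1 and IRF composite motif, present in 2.72%, were not found in the windows of Flt3, Kit, Csf2ra, Csf2rb2, Csf3r or Il3ra. TTGCNNAA, bound by C/EBP factors and present in 10.8%, was found once, in Il3ra at -134.

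Of the 8 receptors, Flt3 showed the largest spleen difference from CDC, in IKDC and in NK alike. Its level was 8.69 on the lymph node IKDC array and 6.13 and 5.75 on the spleen IKDC arrays. In NK it was 5.77 in lymph node and 5.61 and 5.22 in spleen, and in CDC 10.85 in lymph node and 10.90 and 11.25 in spleen. The order was CDC, then lymph node IKDC, then spleen IKDC and NK, and no IKDC or NK array came near a CDC array. In the deposited intensities Flt3 had 405.8 on the lymph node IKDC array and 66.0 and 36.6 on the spleen IKDC arrays, and 31.6 to 49.6 on the NK arrays, against 1855 to 2465 on the CDC arrays. The spleen means were 5.94 ± 0.27 in IKDC and 5.41 ± 0.27 in NK, against 11.07 ± 0.25 in CDC (SD, n = 2 each). Spleen IKDC were lower than spleen CDC by a log2 difference of -5.13 ± 0.30 (SE; limma adjusted p = 0.00129), 35.1-fold lower. Spleen NK were lower than spleen CDC by -5.66 ± 0.30 (adjusted p = 0.00058), 50.6-fold lower. Both differences kept their call in all 22 alternative settings, some of which repeat the same values. These are bulk samples, in which fewer cells of a type and less RNA per cell cannot be told apart.

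**Figure D1:**
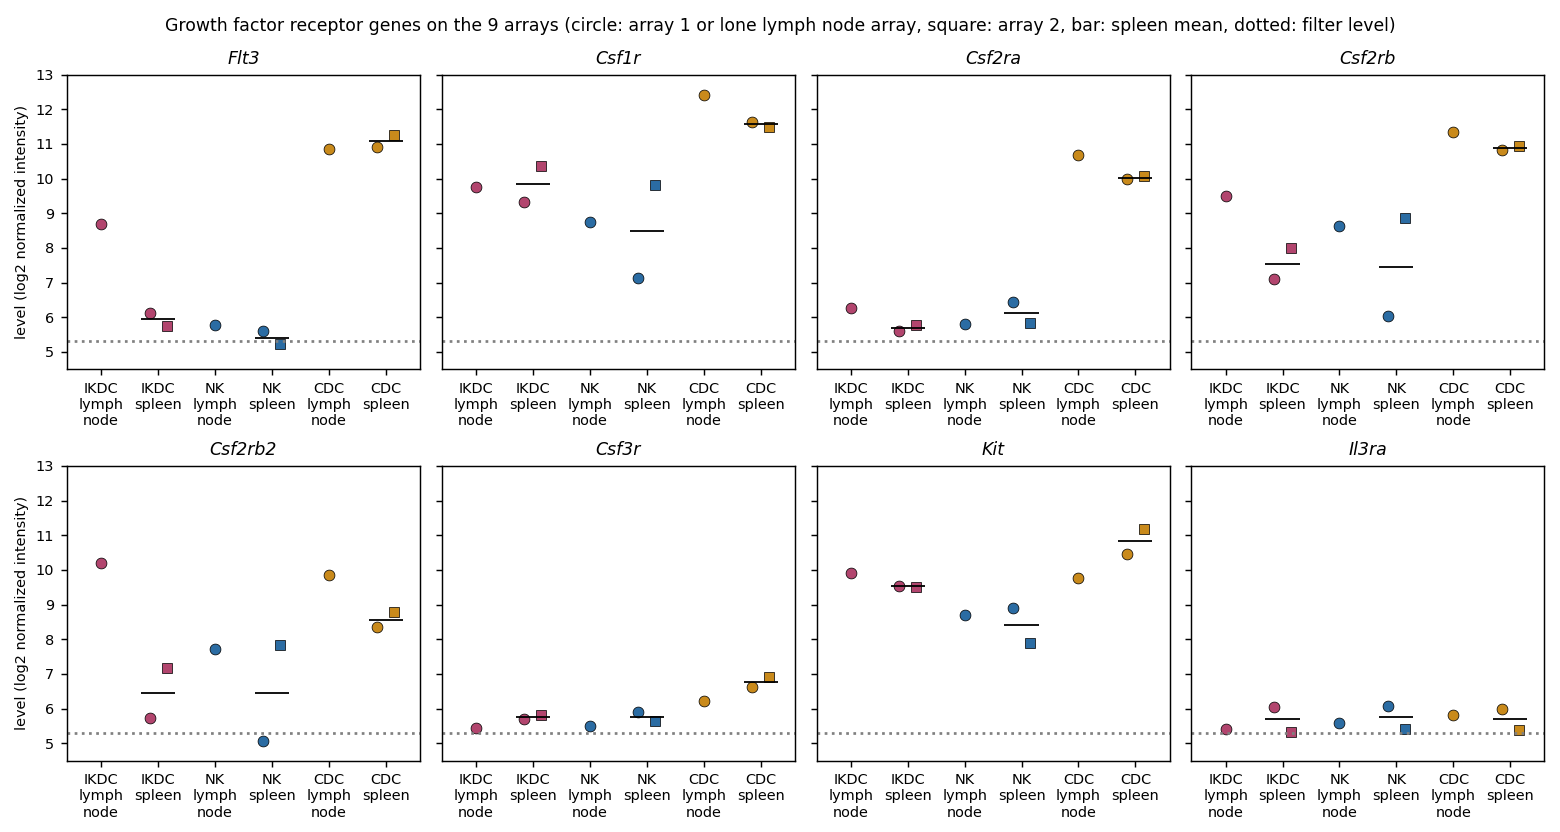
Log2 level of each of the 8 receptor genes (vertical axis) by group (horizontal axis): IKDC, NK and CDC, lymph node left of spleen. Circles are spleen array 1 or the lone lymph node array, squares are spleen array 2, bars are spleen means and the dotted line is the filter level of 5.31. Flt3 stands at 10.85 or more on every CDC array and at 8.69 on the lymph node IKDC array, and Il3ra stays between 5.32 and 6.09 on all 9 arrays.

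Kit, unlike Flt3, was well above the filter level in all 3 cell types by its brighter probe set, 1452514_a_at. Its level was 9.91 in lymph node IKDC and 9.54 and 9.51 in spleen IKDC. In NK it was 8.71 in lymph node and 8.91 and 7.90 in spleen, and in CDC 9.77 in lymph node and 10.46 and 11.17 in spleen. By that probe set every IKDC array lay above every NK array, and the lymph node IKDC array lay above the lymph node CDC array. On the dimmer 1415900_a_at, IKDC (4.51 to 5.59) and NK (4.88 to 5.23) overlapped, with most values below the filter level. There the lymph node IKDC array (5.11) lay below the lymph node CDC array (5.35). Kit was lower in spleen NK than in spleen CDC, by a log2 difference of -2.42 ± 0.41 (adjusted p = 0.0115), 5.34-fold lower. That call was lost without spleen NK array 2 (-1.91, adjusted p = 0.0651) and without spleen CDC array 2 (-2.06, adjusted p = 0.0974). The spleen IKDC difference from CDC, -1.29 ± 0.41, did not pass (adjusted p = 0.110). Progenitor markers without Kit summed to 723 to 2160 in IKDC and 525 to 1387 in NK, against 966 to 1793 in CDC, ranges that overlapped.

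Csf1r, the macrophage growth factor receptor, was above the filter level on all 9 arrays. It was at 9.77 in lymph node IKDC and 9.33 and 10.35 in spleen IKDC. In NK it was at 8.76 in lymph node and 7.14 and 9.82 in spleen, and in CDC at 12.41 in lymph node and 11.64 and 11.48 in spleen. All IKDC and NK arrays lay below all CDC arrays, while IKDC and NK overlapped. The spleen NK arrays differed by 2.68, so that their mean of 8.48 ± 1.89 was loosely fixed, and the CDC mean was 11.56 ± 0.11 (SD, n = 2 each). The difference from CDC was -3.08 ± 0.83 in spleen NK (adjusted p = 0.0589) and -1.72 ± 0.83 in spleen IKDC (adjusted p = 0.282), and neither passed. With the sex-linked split as a block the NK difference passed (adjusted p = 0.0117) and the IKDC difference did not (adjusted p = 0.0952). Without spleen NK array 1 the NK difference was -1.74 (adjusted p = 0.123), and without array 2 it was -4.42 (adjusted p = 0.0122). It passed with its size unchanged when spleen IKDC array 1 (adjusted p = 0.0415) or 2 (adjusted p = 0.0436) was left out.

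Of the GM-CSF receptor chains, the alpha chain Csf2ra was, like Flt3, lower in spleen IKDC and spleen NK than in spleen CDC. Its level was 6.26 in lymph node IKDC and 5.60 and 5.77 in spleen IKDC. In NK it was 5.81 in lymph node and 6.44 and 5.83 in spleen, and in CDC 10.68 in lymph node and 9.98 and 10.07 in spleen. IKDC and NK overlapped not far above the filter level, and all of them lay below every CDC array. Spleen IKDC fell by 4.35 ± 0.30 relative to spleen CDC (adjusted p = 0.00129), 20.4-fold lower, and spleen NK by 3.90 ± 0.30 (adjusted p = 0.000896), 14.9-fold lower. Both calls held in all 23 alternatives, which overlap in part.

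The shared beta chain Csf2rb, in contrast, was found on IKDC and NK arrays at widely spread levels by its brighter probe set, 1455660_at. It was at 9.49 in lymph node IKDC and 7.09 and 8.00 in spleen IKDC. In NK it was at 8.64 in lymph node and 6.04 and 8.86 in spleen, and in CDC at 11.34 in lymph node and 10.81 and 10.94 in spleen. IKDC and NK overlapped in part and all lay below CDC. The lymph node IKDC array lay above every NK array, and spleen NK array 1 lay below every IKDC array. Spleen NK were lower than spleen CDC by -3.43 ± 0.85 (adjusted p = 0.0464), 10.7-fold lower, and the spleen IKDC difference of -3.33 ± 0.85 missed the threshold (adjusted p = 0.0604). The NK call was lost without spleen NK array 1 (-2.02, adjusted p = 0.0775), spleen CDC array 1 (-3.49, adjusted p = 0.178) or spleen CDC array 2 (-3.36, adjusted p = 0.228). The IKDC difference passed with the sex-linked split as a block (adjusted p = 0.00947). It also passed without spleen NK array 1 (adjusted p = 0.0101) or 2 (adjusted p = 0.0104), which changed its error and not its size.

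Csf2rb2 gave another pattern. Lymph node IKDC had the highest level of all 9 arrays, 10.19, against 5.73 and 7.18 in spleen IKDC. In NK it was at 7.72 in lymph node and 5.08 and 7.83 in spleen, and in CDC at 9.86 in lymph node and 8.35 and 8.78 in spleen. Spleen IKDC and NK lay below CDC and overlapped each other, with means of 6.45 ± 1.02 and 6.45 ± 1.94, against 8.56 ± 0.30 in CDC (SD, n = 2 each). The difference from CDC was -2.11 ± 0.91 in each, and neither passed (adjusted p = 0.227 in IKDC and 0.207 in NK). With the sex-linked split as a block both passed (adjusted p = 0.0323 in IKDC and 0.0277 in NK). The NK difference was -0.74 (adjusted p = 0.646) without spleen NK array 1 and -3.49 (adjusted p = 0.046) without array 2. Csf2rb and Csf2rb2 are neighbouring genes on chromosome 15 with closely alike coding sequences, so a probe set of either may pick up the other, and their separate levels are uncertain.

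The alpha chain for IL-3 was near the filter level in every group. The G-CSF receptor was near it in IKDC and NK and somewhat higher in CDC. Il3ra was at 5.42 in lymph node IKDC and 6.05 and 5.32 in spleen IKDC, 5.59 in lymph node NK and 6.09 and 5.40 in spleen NK, and 5.83 in lymph node CDC and 5.99 and 5.39 in spleen CDC. Its spleen array 2 was below array 1 by 0.73, 0.68 and 0.60 in IKDC, NK and CDC, more than the cell types differed within a number. The spleen difference from CDC was -0.01 ± 0.46 in IKDC (adjusted p = 0.996) and 0.05 ± 0.46 in NK (adjusted p = 0.967). Csf3r was at 5.43 in lymph node IKDC and 5.70 and 5.82 in spleen IKDC, 5.49 in lymph node NK and 5.90 and 5.64 in spleen NK, and 6.23 in lymph node CDC and 6.62 and 6.92 in spleen CDC. All IKDC and NK arrays lay below all CDC arrays, by a spleen difference of -1.0 ± 0.32 in each that did not pass (adjusted p = 0.117 in IKDC and 0.104 in NK). Neutrophil markers summed to 102 to 401 in IKDC and 228 to 327 in NK, against 182 to 439 in CDC.

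Counted over the 8 receptors, 2 were lower and 0 higher in spleen IKDC than in spleen CDC, where 10.3% of all genes tested were called, 5.6% lower and 4.75% higher. In spleen NK 4 were lower and 0 higher than in spleen CDC, where 13.5% of genes were called, 6.97% lower and 6.54% higher. The median difference of the receptors was -1.92 in IKDC and -2.75 in NK, beside 0.04 and 0.06 over all genes tested. Both comparisons use the same CDC arrays. Over all 9 arrays by cell type, every IKDC array lay below every CDC array for 5 receptors (Flt3, Csf1r, Csf2ra, Csf2rb and Csf3r), as for 14.5% of genes. For NK this held for 7 receptors, all but Il3ra, as for 17.2% of genes. The NK count of 4 was 2 without spleen CDC array 2. With the sex-linked split, which here falls between spleen arrays 1 and 2, as a block, 4 receptors were lower in IKDC (Csf2rb and Csf2rb2 added), where 17.2% of genes were called, and 6 in NK (Csf1r and Csf2rb2 added), where 21.2% were. Set against the CDC array of the same number, the IKDC differences on arrays 1 and 2 were -4.77 and -5.50 for Flt3, -4.39 and -4.31 for Csf2ra, and -3.72 and -2.94 for Csf2rb. The NK differences were -5.29 and -6.03 for Flt3, -3.55 and -4.24 for Csf2ra, -4.77 and -2.08 for Csf2rb, and -1.56 and -3.27 for Kit. All of these were below 0 on both numbers, as were those of Csf1r, Csf2rb2 and Csf3r in IKDC and NK and of Kit in IKDC (-0.92 and -1.66). They come from the same spleen arrays as the tests and add no separate evidence. The share of all genes below 0 on both numbers was not computed.

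**Figure D2:**
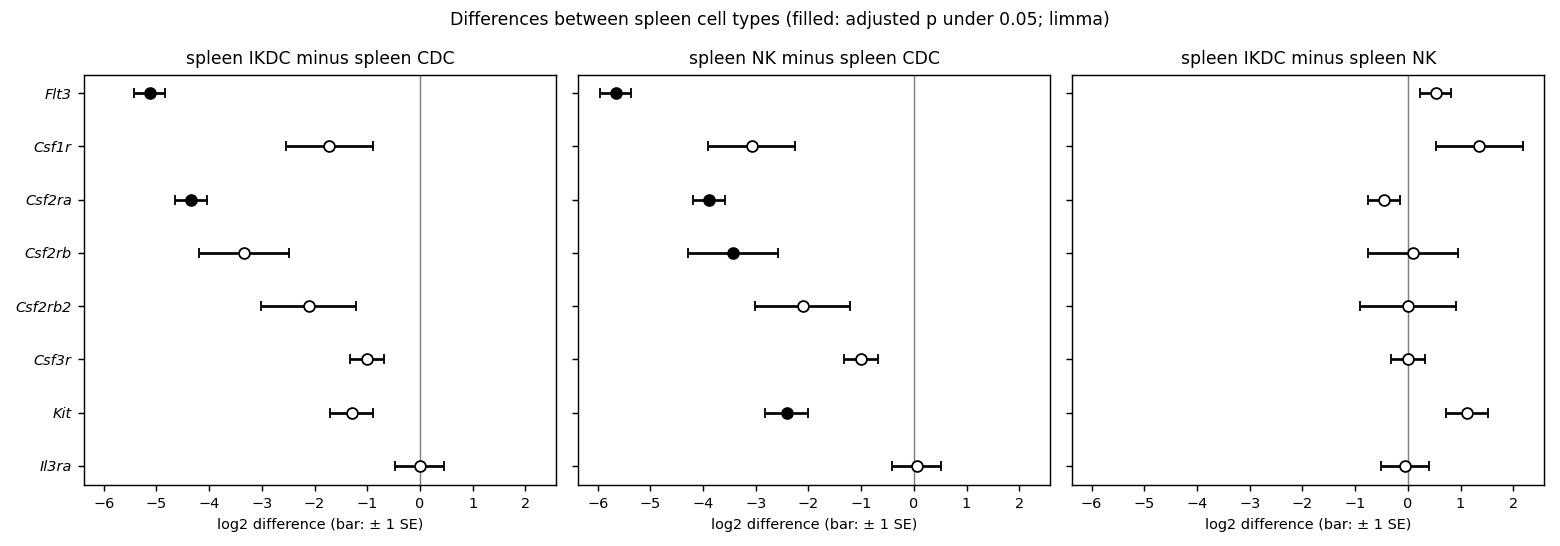
Log2 difference ± 1 SE of each receptor (horizontal axis) for spleen IKDC minus spleen CDC, spleen NK minus spleen CDC and spleen IKDC minus spleen NK. Filled points passed the adjusted p threshold of 0.05: Flt3 and Csf2ra in IKDC, and Flt3, Csf2ra, Csf2rb and Kit in NK.

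Between IKDC and NK of the spleen 0 receptors passed, as did 0% of all genes tested by limma. At an unadjusted p under 0.05 there were 598 genes and 1 receptor, Kit, which was higher in IKDC by 1.12 ± 0.41 (2.18-fold; unadjusted p = 0.0304, adjusted p = 0.857). That value was 1.63 without spleen NK array 1 and 0.62 without array 2. Kit was also the 1 receptor for which every IKDC array lay above every NK array, as for 4.83% of genes. This held for its brighter probe set only, and 1415900_a_at differed by -0.0021. Flt3 differed by 0.53 ± 0.30, Csf1r by 1.36 ± 0.83 and Csf2ra by -0.45 ± 0.30 (adjusted p = 0.865 for each). The Csf1r value was 0.02 without spleen NK array 1 and 2.70 without array 2, that of Csf2ra -0.15 and -0.76, and that of Flt3 0.72 and 0.34. Without spleen IKDC array 1 or 2 the Csf1r value was 1.87 or 0.85 and the Flt3 value 0.34 or 0.72. The sign of the Csf2ra difference depended on the probe set, and on 1420704_at both spleen NK arrays (4.24 and 4.83) lay below the filter level.

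Each organ comparison set 1 lymph node array against 2 spleen arrays, and the lone array was assumed to vary like the rest. In IKDC, Flt3 was higher in lymph node by 2.75 ± 0.37, 6.73-fold, with an unadjusted p = 0.000203 and an adjusted p = 0.0714 that missed the threshold. Csf2rb2 was higher by 3.74 ± 1.11, 13.4-fold (unadjusted p = 0.0135, adjusted p = 0.502), and Csf2rb by 1.95 ± 1.05 (adjusted p = 0.798). All lymph node arrays had the sex-linked pattern of spleen arrays 2. With that split as a block, Flt3 differed by 2.82 ± 0.36 and passed (adjusted p = 0.0313), as did 0.586% of genes, and Csf2rb2 differed by 2.97 ± 0.65 (adjusted p = 0.132). Without the block 0 receptors passed in IKDC, where 0% of genes did and 744 genes had an unadjusted p under 0.05. In CDC 0 receptors passed, where 0.0275% of genes did: Csf1r differed by 0.85 ± 1.01, Csf2ra by 0.66 ± 0.37, Csf2rb2 by 1.30 ± 1.11 and Kit by -1.05 ± 0.50. In NK 0 receptors passed, where 0% of genes did and 628 had an unadjusted p under 0.05. The organ difference of Flt3 was larger in IKDC than in CDC by 2.98 ± 0.52 (unadjusted p = 0.000929, adjusted p = 0.390) and larger than in NK by 2.39 ± 0.52 (unadjusted p = 0.00297, adjusted p = 0.876). In these tests of the difference itself 0 receptors and 0% of genes passed, with 615 and 303 genes at an unadjusted p under 0.05.

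Markers of other cells moved with some of these values. 8 plasmacytoid dendritic cell markers summed to 10049 on the lymph node IKDC array, where Flt3 and Csf2rb2 were high, and to 1677 and 976 on the spleen IKDC arrays. All 8 were at or above the filter level on that array, against 5 and 7 on the spleen IKDC arrays. Siglech was at 10.78 there and at 5.45 and 6.51 on the spleen arrays, and Ccr9 at 11.78 against 4.48 and 6.64. The same list summed to 751 to 928 in NK, and to 3182 in lymph node and 1610.1 and 1216 in spleen CDC. The part of these cells in the Flt3 and Csf2rb2 levels was not tested.

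On spleen NK array 2, where Csf1r, Csf2rb and Csf2rb2 exceeded array 1 by 2.68, 2.81 and 2.75, mast cell and basophil markers were high. 11 such genes summed to 4244 on array 2 and 890.4 on array 1, with 9 and 6 of them at or above the filter level. Cpa3, a mast cell protease, was at 9.41 and 6.01, and Mcpt8, a basophil protease, at 8.31 and 5.38. The list summed to 349 to 578 in IKDC, 1525 in lymph node NK and 259 to 379.9 in CDC. 10 macrophage and monocyte markers summed to 2922 on NK array 2 and 2017 on array 1, and their lysozyme gene Lyz2 was at 10.05 and 6.42. Ccr2 alone ran the other way and made up 745 of the sum on array 2 and 1576 on array 1, while the other 9 were all higher on array 2. Erythroid and platelet markers summed to 1503 on NK array 2 and 174 on array 1, and the platelet gene Pf4 was at 9.60 and 5.95. Their part in the NK levels was not tested. Kit, which mast cells carry, was at 7.90 on array 2 and 8.91 on array 1. In spleen IKDC the same 3 genes were higher on array 2 by 1.02, 0.91 and 1.45, and the macrophage list summed to 4502 on array 2 and 1918 on array 1. In spleen CDC they differed by -0.16, 0.13 and 0.43, with list sums of 6542 on array 2 and 5683 on array 1.

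**Figure D3:**
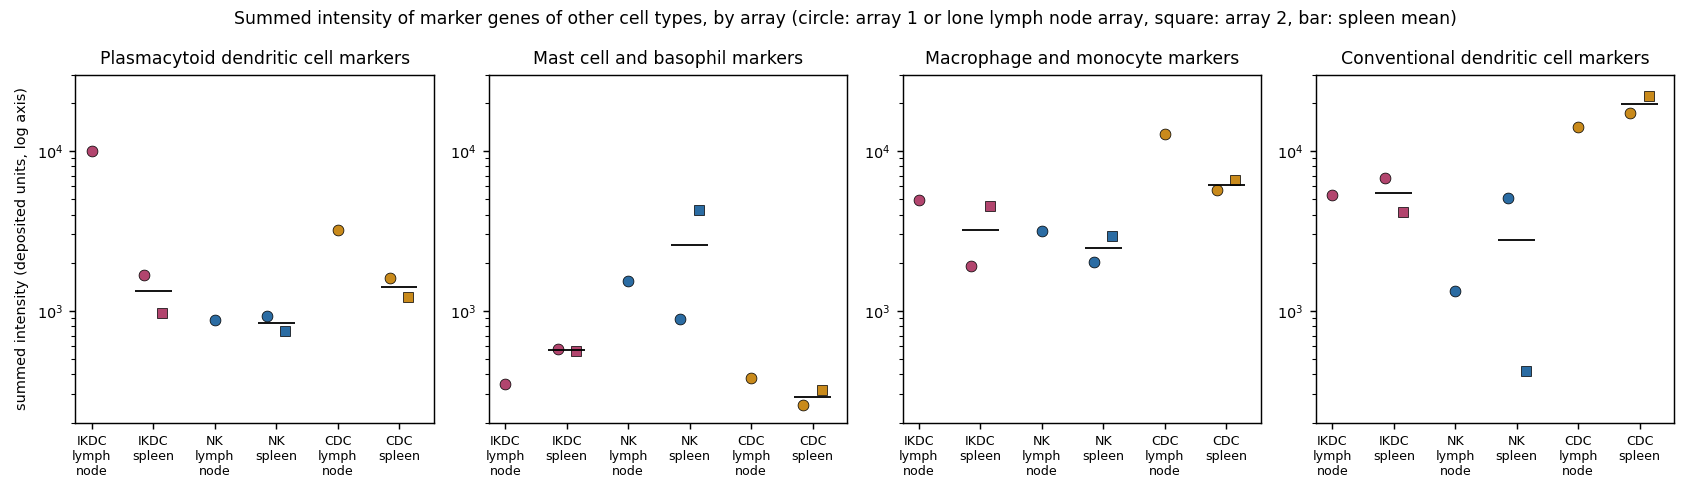
Summed intensity of 4 marker lists (vertical axis, log scale) on each array by group, IKDC and NK left of CDC. The plasmacytoid list peaks at 10049 on the lymph node IKDC array and the mast cell and basophil list at 4244 on spleen NK array 2.

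Receptors with several probe sets were compared across them, with p adjusted over all 20967 probe sets tested in place of 10916 genes. The 3 Csf1r probe sets (1419872_at, 1419873_s_at and 1423593_a_at) gave spleen IKDC differences from CDC of -1.72, -1.95 and -1.50 and spleen NK differences of -3.08, -3.25 and -1.70, all in 1 direction and none past the threshold. Both Csf2ra probe sets were lower in IKDC, by -4.35 for 1420703_at and -3.67 for 1420704_at, and in NK, by -3.90 and -4.70, and all 4 tests passed. They parted on IKDC against NK, at -0.45 and 1.03, but all NK values of 1420704_at (3.64 to 4.83) lay below the filter level. For Csf2rb, 1455660_at and 1421326_at gave -3.33 and -3.06 in IKDC and -3.43 and -3.66 in NK, of which only the last passed (adjusted p = 0.0372). On 1421326_at all NK arrays (2.96 to 5.27) and both spleen IKDC arrays (4.05 and 5.09) lay below the filter level. The size of its differences is thus uncertain. The NK difference of 1455660_at, which stood for the gene above, had an adjusted p = 0.0520 over probe sets, against 0.0464 over genes. For Kit, 1452514_a_at passed in NK (-2.42), while the dimmer 1415900_a_at did not (-1.62, adjusted p = 0.232) and differed by -0.0021 between IKDC and NK. That probe set was at 4.51 to 5.59 in IKDC and 4.88 to 5.23 in NK, against 5.35 to 7.63 in CDC, so most of its values lay near the filter level.

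**Figure D4:**
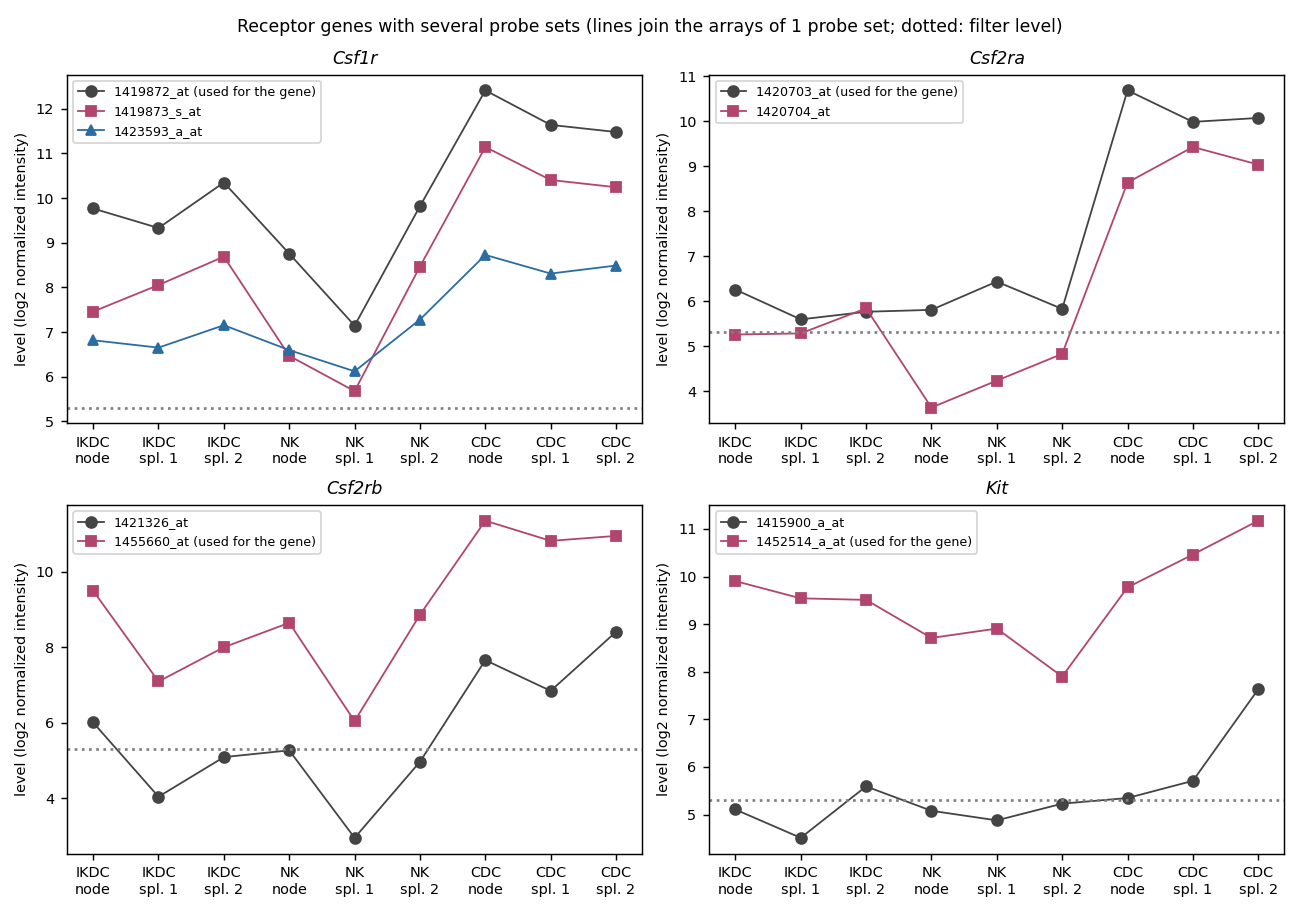
Log2 level of every probe set of Csf1r, Csf2ra, Csf2rb and Kit (vertical axis) on the 9 arrays, ordered IKDC, NK and CDC with lymph node left of spleen. Both Csf2ra probe sets are highest on the CDC arrays, and all 3 Csf1r probe sets are higher on spleen NK array 2 than on array 1.

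The genes most like each receptor over the 9 arrays were listed by Pearson's correlation, as a description of arrays that share cell type and organ. Flt3 ran closest to Unc93b1, Ifi30, Gpr35, Syngr2 and Siglecg (r = 0.99 each), and Csf2ra to Gm11545, Fam149a, Ppt1, Phf11d and BC028528 (r of 0.99 to 1.00). Csf1r and Csf2rb both had Mitf among their closest 5 genes (r = 0.96 and 0.97), Csf1r beside Gatm, Btk, Uhrf1bp1 and Cttnbp2nl and Csf2rb beside Alox5ap, Pirb, Ifi44l and Stx3. Csf2rb2 ran closest to Eral1 (0.95), Eln, Nucb2, Lrrc14 and Cd209b, and Kit to Akap7 (0.97), Wdr13, Mcoln1, AA619741 and Irf4 (0.94). Among the receptors, Flt3 was most like Csf2ra (0.93) and least like Il3ra (0.05), and Csf2rb most like Csf1r (0.90) and Csf2rb2 (0.87). Csf3r and Il3ra varied by less than 2 log2 units over the arrays and were given no such list. That bound was not set for the genes listed, and Eral1, Lrrc14 and Mcoln1 varied by 0.84 to 0.85.

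Of 9 ligands and partner chains listed, 8 were on the array and 3 reached the filter. Csf2, which encodes GM-CSF, was higher in IKDC: 7.12 in lymph node and 8.29 and 6.99 in spleen, with NK at 7.08 in lymph node and 6.84 and 3.83 in spleen, against 3.44 in lymph node CDC and 3.39 and 2.90 in spleen CDC. All CDC arrays were below the filter level, and against that level spleen IKDC were at least 5.03-fold higher (4.49 ± 0.98, adjusted p = 0.0358). The call was lost without spleen IKDC array 1 (adjusted p = 0.0845), spleen CDC array 1 (0.139) or spleen CDC array 2 (0.212), and with no filter (0.0595) or an offset of 50 (0.0506). In NK 0 of the 3 genes passed, and Csf2 differed by 2.19. Csf2 was thus above the filter level in all IKDC arrays and all NK arrays but spleen array 2, whereas its receptor chain Csf2ra was highest on the CDC arrays. Csf1, a ligand of Csf1r, was at 6.15 in lymph node and 6.66 and 6.27 in spleen IKDC, 7.67 in lymph node and 6.00 and 7.72 in spleen NK, and 6.76 in lymph node and 5.32 and 6.31 in spleen CDC. Kitl, which encodes stem cell factor, was between 5.40 and 6.50 on all arrays. Csf3, Il3, Il34, Il5 and Il5ra lay below the filter and were not tested, and Flt3l was not analysed here.

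**Figure D5:**
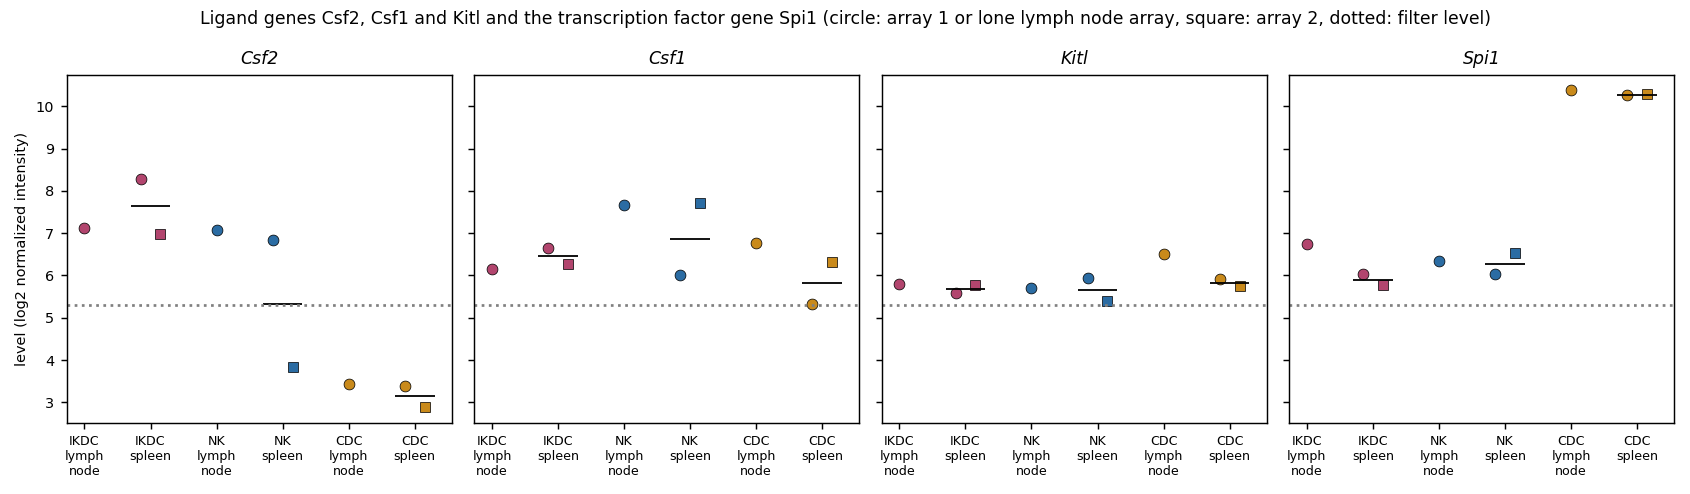
Log2 level of Csf2, Csf1, Kitl and Spi1 (vertical axis) by group, IKDC and NK left of CDC, with the filter level of 5.31 dotted. Csf2 lies at or below 3.44 on the CDC arrays and Spi1 at or above 10.26 on them.

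Of 33 receptor signalling genes listed, 24 were tested. None rose and 3 fell in spleen IKDC: Jak2 (-1.57, adjusted p = 0.00651), the kinase used by the beta chains, and the tyrosine kinases Fes (-1.78, adjusted p = 0.0195) and Fgr (-2.12, adjusted p = 0.0313). In spleen NK 3 fell, Jak2 (-1.53), Fgr (-2.94) and the adaptor Grb2 (-0.98, adjusted p = 0.0371), and 0 rose. The list's median difference was 0.05 in IKDC and -0.01 in NK. All 3 IKDC calls and that of Fgr in NK were lost without either spleen CDC array (adjusted p of 0.0554 to 0.174). Of the others, Grb2 was lost without any 1 spleen NK or CDC array (0.151 to 0.220), Jak2 in NK without NK array 1 (0.0611) or CDC array 2 (0.0606), and Fgr in IKDC also without IKDC array 2 (0.0742). Fgr in IKDC was at -1.23 in an additive model of cell type and organ (0.159), and Jak2 did not pass by its other probe set (0.131 in IKDC and 0.151 in NK). In lymph node, Fgr ran the other way, at 9.44 in IKDC and 8.89 in CDC, while Fes and Jak2 were lower in IKDC there. Grb2 was lost with the shift to a common 75th percentile (0.0501), without a trended prior (0.0513), as the mean of its probe sets (0.107) and by its other probe set alone (0.567).

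Of 22 negative regulators of such receptors listed, 21 were tested, and 5 rose and 2 fell in IKDC and likewise in NK, with list medians of -0.31 in IKDC and -0.62 in NK. Spry2, an inhibitor of receptor tyrosine kinase signalling, was 33.0-fold higher in IKDC (5.05) and 45.0-fold higher in NK (5.49). The adaptor Dok2 was 17.7-fold higher in IKDC and 22.7-fold in NK. Socs3, a feedback inhibitor of cytokine receptors including that of G-CSF, was 14.8-fold higher in both. Sla2, an adaptor that dampens antigen receptor signalling, was at least 6.78-fold higher in IKDC and 7.02-fold in NK. These 8 calls were kept whichever array was left out. Another Spry2 probe set gave 2.43 in IKDC and did not pass (adjusted p = 0.0600).

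Among 18 transcription factors tested, 3 rose and 4 fell in IKDC and 3 rose and 5 fell in NK, with medians of -0.53 and -0.58. Spi1, which encodes PU.1, a factor of myeloid receptor genes, was at 6.75 in lymph node and 6.03 and 5.78 in spleen IKDC. It was at 6.33 in lymph node and 6.03 and 6.52 in spleen NK, against 10.37 in lymph node and 10.26 and 10.28 in spleen CDC. It fell 20.6-fold in IKDC (-4.37 ± 0.29, adjusted p = 0.00129) and 15.9-fold in NK (-3.99 ± 0.29, adjusted p = 0.000736). Batf3, a dendritic cell factor that is also 1 of the check markers, fell by 4.04 in IKDC and at least 26.7-fold in NK. Maf rose at least 8.07-fold in IKDC and 7.32-fold in NK by its brightest probe set. Of its other 3 probe sets none passed alone in IKDC (1.49 to 2.57, adjusted p of 0.0643 to 0.140) and 1 did in NK. Myb, a progenitor factor, rose in IKDC (3.40, adjusted p = 0.0268), a call lost without either spleen NK array (0.0516 and 0.0530) or either CDC array (0.156 and 0.100), as the mean of its probe sets (0.0708) and by the other 2 probe sets alone (0.194 and 0.158). Irf4 fell at least 14.6-fold in NK, a call lost without spleen CDC array 2 (0.0560) and by its other probe set (0.0938).

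Other cytokine receptors served as a comparison. Of 23 tested, 4 rose and 2 fell in IKDC and 5 rose and 4 fell in NK, with medians of -0.04 and 0.26. Il2rb, the beta chain for IL-2 and IL-15, was at least 54.4-fold higher in IKDC and 35.6-fold in NK, and Il18r1, the IL-18 receptor, was 45.8-fold higher in IKDC and 89.4-fold higher in NK. Il2rb is also 1 of the NK markers used as a check. Il7r rose 7.09-fold in IKDC, a call lost without either spleen CDC array (adjusted p = 0.0949 and 0.0932) and by its other probe set (0.0679). Il6st, the chain shared by the IL-6 family, fell 5.60-fold in IKDC and 8.59-fold in NK. The IKDC call of Il6st was lost without either CDC array (0.0516 and 0.141), and the NK call without NK array 1 (0.0549) or CDC array 2 (0.0615). 1 of its 3 probe sets passed in neither (-0.53 in IKDC and -1.04 in NK), and the mean of the 3 did not pass in IKDC (0.0638). Il13ra1 fell at least 3.32-fold in NK, a call lost when any 1 spleen NK or CDC array was left out (0.0539 to 0.159) or 1 of its 3 probe sets used (0.0576). Between spleen IKDC and spleen NK 0 genes passed in any of these lists.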

How the data were processed

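The authors deposited 1 signal intensity per probe set and array, on a linear scale and scaled per array. Per the labels, RNA was extracted with TRIzol and RNeasy and 6 µg gave biotin-labelled cRNA. No source used here names the software that made the signal. The arrays' median intensity lay between 23.4 and 41.3.

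Of 45101 probe sets, 64 were controls, 932 carried several symbols, 9160 none and 34945 a single one by the platform annotation. An offset of 6.49 (the 20th percentile) was added, log2 taken and values quantile normalized. The probe set with the highest mean stood for a gene, and genes below the 40th percentile of mean level were not tested. limma 3.58.1 in R 4.3.3 fitted 6 group means with a trended prior, and p-values were adjusted by Benjamini and Hochberg over 10916 genes with a threshold of 0.05. The fit had 3 residual degrees of freedom. It was tested on simulated data. Lower bounds on a fold use the filter level. Figures were drawn with matplotlib 3.10.9.

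The receptors and gene lists were chosen with earlier results of these data known. Named genes are the receptors, their ligands and partner chains, the 4 called list genes with the largest difference per comparison between cell types, the 5 genes most correlated with a receptor, and genes that check the arrays. Lists of T cell, B cell, erythroid and innate lymphoid markers were also summed: in IKDC, NK and CDC the T cell sums were at most 2368, 2799.9 and 1143, the B cell sums 1776, 481 and 2885, the erythroid and platelet sums 257, 1503 and 364, and the innate lymphoid sums 669, 1622 and 128. The labels do not say which arrays share animals. The sex-linked genes differ between spleen arrays 1 and 2, which puts these in different mice, and p-values measure only the spread between these arrays, whose number limits the precision. Because that split was seen in the data, a fit with it as a block was added. The alternatives, leaving out each spleen array among them, are given with their effect under the dependence on processing.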

Additional observations from a re-analysis of the deposited data

How the results depend on the processing

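Over 58 differences of single genes, 1188 of 1298 alternative results kept their direction and side of the threshold, 27 passed it newly, 72 no longer passed and 11 changed sign. These alternatives overlap. The 2 blocks give the same fit for spleen comparisons, and a gene with 1 probe set keeps its values whichever probe set is chosen. Leaving out an array outside a comparison changes the error and not the size of the difference. Flt3 and Csf2ra stayed lower than in CDC in every alternative. The receptors called in spleen IKDC against CDC numbered 2, and 4 with the replicate number or, added after the data were seen, the sex-linked split as a block and 5 in an additive model of cell type and organ; leaving out an array gave 2 to 3. In spleen NK they numbered 4, and 6 with either block, 6 in the additive model and 2 to 5 when an array was left out. In lymph node IKDC 1 receptor, Flt3, passed with the filter at the 60th percentile and with the split as a block, against 0 otherwise. Of all genes tested, 22 passed at that filter and 64 with that block.

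Counts over all genes moved more. The replicate block called 1883 genes in IKDC and 2318 in NK against CDC, where the fit without it called 1129 and 1475, and the additive model called 1897 and 2404. Without spleen CDC array 1 they were 465 and 729, without CDC array 2 360 and 515, and without NK array 1 or 2 677 and 669 in NK. Deviations of same-numbered spleen arrays correlated across genes (0.49 for IKDC and NK, 0.53 for IKDC and CDC, 0.41 for NK and CDC), and the numbers follow the sex-linked split, but with 2 numbers and no label on what they mean the design does not show that they pair the samples.

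The changes of sign concerned small differences. Il3ra in IKDC against CDC was 0.36 without IKDC array 2 and 0.29 without CDC array 1 (range -0.37 to 0.36 over arrays left out); in NK it was -0.0441 in the additive model, -0.29 without NK array 1 and -0.25 without CDC array 2 (range -0.29 to 0.39). Csf2ra in spleen IKDC against NK was 0.29 as the mean of its probe sets and 1.03 with the most variable probe set or 1420704_at alone, where its lymph node difference in CDC was -0.59. Kit in IKDC against NK was -0.0021 with 1415900_a_at alone. Apart from the probe sets used, the cause of these changes was not tested. Levels near or below the filter limit what these arrays can separate. That holds for Il3ra and for the dimmer probe sets of Csf2ra, Csf2rb and Kit. It also holds for Csf3r, for Csf2ra in IKDC and NK, and for Flt3 in NK and spleen IKDC.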
